A study of Mus musculus with 10 samples.

Results

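Cytoplasmic ribosomal proteins are the protein parts of the ribosome that translates nuclear genes. The group was taken as every gene whose array symbol is Rpl (large subunit) or Rps (small subunit) plus a number, with an optional ending a, x, l or l1, together with the stalk genes Rplp0, Rplp1 and Rplp2 and the gene Rpsa. Of 18194 genes with a probe set annotated to 1 symbol alone, 48 met this rule, 26 of the large and 22 of the small subunit. A further 28 symbols of the same form, among them Rpl3, Rpl5, Rpl10, Rpl24 and Rplp1, occur on this array only on probe sets that are annotated to several symbols, and they were left out. Each gene was read from the probe set with the highest mean over the 10 arrays, and a probe set is a group of short oligonucleotides that together give 1 value per array.

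The samples were leukemic cells sorted from the bone marrow of mice with T cell acute lymphoblastic leukemia (T-ALL) driven by ICN1, the activated form of NOTCH1. All cells of both groups carried a ROSCreERT2 transgene, a Cre recombinase that tamoxifen switches on, and 2 floxed copies of CnB1 (gene symbol Ppp3r1), the regulatory subunit of the phosphatase calcineurin. Secondary recipient mice that had become leukemic received tamoxifen (TAM, 5 arrays), which deletes CnB1, or the corn oil carrier (OIL, 5 arrays), which leaves it in place, so treatment with tamoxifen and loss of CnB1 cannot be told apart in these groups. Samples were labelled 204, 206, F3, F3.1 or F3.2, 1 OIL and 1 TAM array for each label. For F3.1 and F3.2 the full labels end in a further number that differs between the OIL and the TAM sample (F3.1-1 and F3.1-4, F3.2-3 and F3.2-10). That ending was left off here, so the pairing of these 4 arrays rests on the shared first part. The sources used here do not say what these labels stand for, nor whether arrays of one label share a primary tumour, so p-values measure the spread between these samples. The sort used GFP or a similar marker in marrow with more than 50% leukemic cells.

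Ribosomal protein genes are transcribed at high and matched rates so that the subunits can be assembled in equal numbers. Their mRNAs start with a C and a run of pyrimidines, the terminal oligopyrimidine (TOP) motif, through which mTOR and the RNA-binding protein Larp1 adjust their translation and stability. In T-ALL, NOTCH1 and Myc are known to drive ribosome production, and mutations of some ribosomal protein genes recur in the human disease.

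The values were deposited log2 intensities from robust multi-array averaging (RMA), 45101 probe sets per array, between 1.74 and 14.02, with array medians between 5.07 and 5.13. RMA sets all arrays to the same distribution, so a value is relative to the other genes of its array, and in a bulk sample fewer cells of a type and less RNA per cell cannot be told apart. The deletion was visible at one of the probe sets of Ppp3r1 (1421786_at), which read 5.32 in OIL and 3.26 in TAM, with no overlap (lowest OIL array 4.49, highest TAM array 3.59), while 1433591_at read 9.80 and 9.67. T lineage markers (9 of 10 measured, none with a mean below the detection limit used here) summed to 14.63 to 14.93 on every array. Cd3d, a chain of the T cell receptor complex, had a mean of 12.78 and Thy1 one of 12.49. The coreceptor genes varied more: Cd8a ran from 7.79 to 11.25 and Cd4 from 6.19 to 7.94, and their means were 9.18 and 6.50 in 204 and 206 and 10.68 and 7.22 in the labels that begin with F3. Summed B lineage markers stayed between 6.90 and 7.22, with 4 of 6 measured markers below that limit. The OIL arrays of F3.1 and F3.2 were the most alike pair (r = 0.997 over all probe sets, SD of the difference 0.186 log2), and averaging that pair is one of the alternatives in the closing section.

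Ribosomal protein genes filled the top of the array's scale. Of the 48 members, 32 had a mean above 13 log2, and 31 of these lay within 1 log2 of the highest value on any array. A further 3 members, Rps15, Rpl22l1 and Rps27l, had means of 12.88, 12.20 and 12.31, and 9 tested members read below 12. The remaining 4, Rpl39l, Rps16, Rpl3l and Rps4l, read 3.05 to 3.55 and fell under 4.59, the level below which the lowest 30% of genes were left out of testing. These are readings of single probe sets and not amounts of RNA that can be ranked between genes. Rpl3l is known as the muscle paralog of Rpl3 and Rpl39l as the testis paralog of Rpl39, whereas Rps16 is a general component of the small subunit that other probe sets, annotated to several symbols, also read. The 44 tested members are 24 of the large and 20 of the small subunit.

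At the top of the scale the arrays differed little from one another. Over all tested probe sets of the members, the 44 with means above 13 had a median SD across the 10 arrays of 0.053 log2, against 0.062 for 20 probe sets of other genes at that level. Between 7 and 10 log2 the medians were 0.203 for 16 member probe sets and 0.204 for 8796 others. Below 7 they were 0.183 for 9 and 0.191 for 11745, between 10 and 12, 0.097 for 5 and 0.151 for 1825. Between 12 and 13 they were 0.096 for 20 and 0.094 for 185. From 7 log2 upward the spread thus fell as the level rose in members and other genes alike, with the largest gap between them at 10 to 12. Whether bright probe sets were near the upper limit of what the array can resolve was not tested.

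No ribosomal protein gene was called between TAM and OIL. In the comparison of TAM with OIL over 12736 tested genes (limma, Benjamini-Hochberg adjusted p under 0.05), 0 of 44 members passed, against 0.471% of all tested genes. With the label as a block, which compares each TAM array with the OIL array of the same label, 0 of 44 passed against 3.38% of all genes. At an unadjusted p under 0.05, 0 of 44 members passed without the block, against 13% of all genes. With the block only Rpl12 did (1 of 44, against 22.4% of all genes). The lowest adjusted p of any member in the limma fit was 0.62 without the block and 0.19 with it. The median TAM minus OIL difference of the members was -0.011 log2, beside -0.031 over all tested genes, with 16 members higher and 28 lower. In 3 of 44 members TAM was higher in 5 of 5 labels and in 5 it was lower, against 1070 and 1715 of 12736 genes. On arrays of either treatment the values of every one of the 44 members overlapped.

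The intervals of the bright members were narrow on the array's scale. The difference was under 0.1 log2 either way in 40 of 44 members, and the 95% interval lay within 0.25 log2 either way in 35. For the 32 members above 13 log2 the intervals reached no further than -0.19 and 0.18. Because the spread is small at the top of the scale, these intervals bound the difference in array signal and not that in RNA. The RNA quality measure, the 3′ minus 5′ signal, had like means in the treatments, at 0.47 ± 0.10 (SD, n = 5) in OIL and 0.47 ± 0.14 (n = 5) in TAM for actin. Among the single arrays it was highest on the TAM array of F3.2, at 0.70 for actin and 0.33 for Gapdh.

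**Figure D1:**
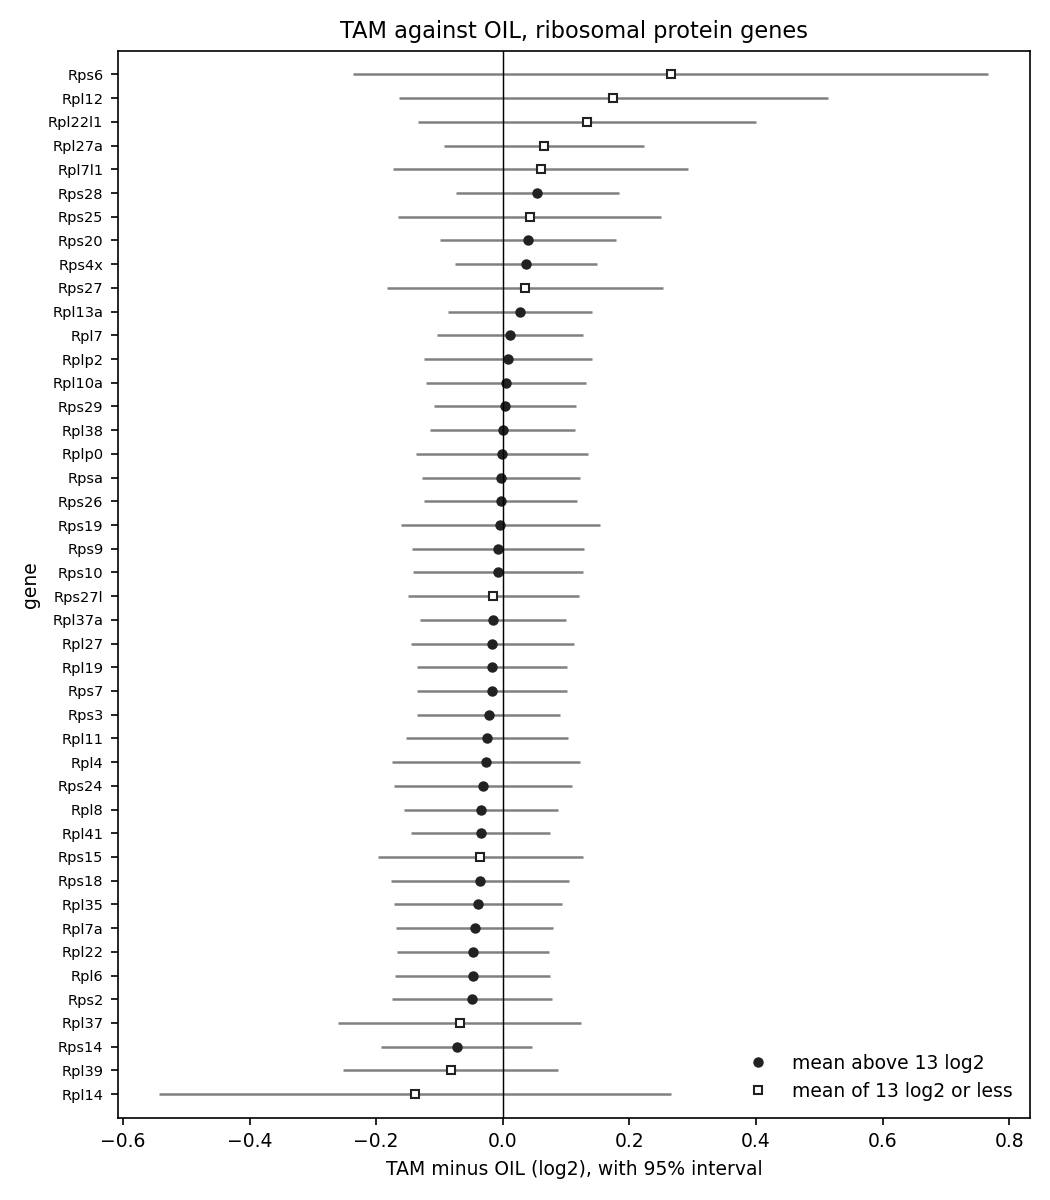
TAM minus OIL difference (log2, horizontal axis) with its 95% interval from limma for each of the 44 tested ribosomal protein genes, ordered by difference; filled circles have a mean above 13 log2. Every interval includes 0, and the widest belong to the dimmer genes Rps6, Rpl14 and Rpl12.

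Among large-subunit members the extremes were Rpl12, which sits at the base of the stalk that recruits translation factors, and Rpl14. Rpl12 read 7.92 (204), 7.87 (206), 7.46 (F3.1), 7.54 (F3.2) and 7.80 (F3) in OIL, and 8.32, 8.05, 7.57, 7.63 and 7.90 in TAM. TAM was higher in 5 of 5 labels, yet the ranges of OIL and TAM overlapped. The difference was 0.17 log2 (95% interval -0.16 to 0.51; adjusted p 0.69 in limma without the block and 0.19 with it). Rpl14 had the lowest difference, -0.14 log2 (-0.54 to 0.27), with TAM higher in 2 of 5 labels.

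Rpl22l1 is the paralog of Rpl22, whose gene is mutated or lost in part of human T-ALL. In OIL, Rpl22l1 read 12.35 (204), 12.42 (206), 12.02 (F3.1), 11.88 (F3.2) and 11.99 (F3), and in TAM 12.37, 12.48, 12.18, 12.13 and 12.17. It was higher in TAM in 5 of 5 labels, by 0.13 log2 on average (-0.13 to 0.40; adjusted p 0.70, and 0.25 with the block, limma). Rpl22 itself read 13.22 ± 0.02 (SD, n = 5) in OIL and 13.17 ± 0.06 in TAM, differing by -0.05 (-0.17 to 0.07), lower in TAM in 5 of 5. A dimmer Rpl22 probe set, 1448398_s_at, read 8.69 ± 0.51 in OIL and 8.28 ± 0.40 in TAM, a larger difference of -0.42 log2 (-0.99 to 0.16), also lower in 5 of 5, and the other, 1416603_at, differed by -0.02. In the fit of single probe sets 1448398_s_at had a limma adjusted p of 0.58, and 0.081 with the block. None of these passed the test.

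Rpl11, which with Rpl5 and an rRNA forms the particle that restrains Mdm2 when ribosome assembly fails, differed by -0.03 log2 (-0.15 to 0.10). The stalk proteins Rplp0 and Rplp2 differed by -0.001 and 0.01. Rpl38, known in mouse for its part in translating Hox mRNAs, differed by less than 0.001, with an interval of -0.11 to 0.12. Rpl13a, which in human cells can leave the ribosome to silence inflammatory mRNAs, differed by 0.03 (-0.09 to 0.14). Its dimmer probe sets differed by more as their level fell, by 0.05 (mean 13.11), 0.11 (12.49) and 0.25 (11.50), the last with a limma adjusted p of 0.55, and 0.19 with the block. Rpl7 and its paralog Rpl7l1 differed by 0.01 and 0.06, and Rpl39, a small protein of the exit tunnel, by -0.08. None of these intervals excluded 0.

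In the small subunit, Rps6, the substrate of the kinase that acts below mTOR, had the highest difference of all members. It read 8.87 (204), 9.54 (206), 8.50 (F3.1), 8.58 (F3.2) and 8.53 (F3) in OIL and 8.88, 9.53, 8.86, 9.38 and 8.71 in TAM. Both arrays of 204 were nearly equal, as were those of 206, and the F3.2 pair differed by the most. The mean difference was 0.27 log2 (-0.24 to 0.77; adjusted p 0.69 without the block and 0.25 with it, limma).

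Rps14, whose loss causes the anemia of a human deletion syndrome, was lower in TAM in 5 of 5 labels, and its interval was narrow. In OIL it read 13.59 (204), 13.51 (206), 13.49 (F3.1), 13.48 (F3.2) and 13.52 (F3), and in TAM 13.47, 13.49, 13.45, 13.40 and 13.41. The difference was -0.07 log2 (-0.19 to 0.05; limma adjusted p 0.62, and 0.46 with the block). Rps19, the gene most often mutated in Diamond-Blackfan anemia, differed by -0.004. The X-linked Rps4x differed by 0.04 and was higher in 5 of 5. Rpsa, also known as a laminin-binding protein, differed by -0.003. Among the 12 tested members that are Diamond-Blackfan genes, differences ran from -0.04 to 0.05.

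Other gene lists tied to ribosomes or to TOP mRNAs gave no call either, against 0.471% of all tested genes without the block and 3.38% with it. At these shares lists this short would hold few calls or none. The mitochondrial ribosomal proteins, which belong to the separate ribosome of mitochondria, had 0 of 76 called in either direction in both fits, with a median difference of -0.055 log2. Of these, 55 were lower in TAM, beside 7517 of 12736 tested genes. Their lowest limma adjusted p was 0.099, and 0.062 with the block. Of the translation factors and partners whose mRNAs carry a TOP start, 0 of 16 tested were called, with a median of -0.030. Among them Eef1a1, the factor that delivers aminoacyl-tRNA, differed by 0.001 and Eif4a2, a helicase, by 0.25 (limma adjusted p 0.31). Regulators of TOP mRNAs, including Larp1 (-0.13), Rptor (-0.17) and Eif4ebp1 (0.46), had 0 of 10 called. Of 10 dedicated chaperones and assembly partners, 0 were called, and their lowest value was -0.27 for Tsr2, known from yeast and human cells as the chaperone of Rps26.

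Some members have further probe sets that did not follow the brightest one. Of 104 probe sets annotated to a member alone, 94 were tested, each on its own in a fit over 22665 probe sets. Without the block 0 of 94 were called, against 0.176% of all probe sets, and with it 3 of 94 were called, against 2.73%. The members' share with the block was therefore close to the background. The 3 belong to Rps3 and Rps20, and are described because they differ from the bright probe sets of the same genes. They were singled out after their values were seen. Over all tested genes, each read from its brightest probe set, 1715 of 12736 were lower in TAM in 5 of 5 labels and 1070 were higher. Dimmer probe sets of members differed in both directions: of the 50 tested other than the brightest, 8 were lower in TAM in 5 of 5 labels and 4 were higher in 5 of 5. Those higher included Rps10 1436384_at, by 0.32 log2 (limma adjusted p 0.32, and 0.071 with the block), where the brightest Rps10 probe set differed by -0.01. For Rpl41 they were 1433530_at and 1454639_x_at, by 0.24 and 0.17 (adjusted p 0.14 and 0.18 with the block), where the brightest differed by -0.03.

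Rps3 lies at the mRNA entry of the small subunit. Its brightest probe set (1435151_a_at) read 13.11 ± 0.03 (SD, n = 5) in OIL and 13.09 ± 0.02 in TAM. Its dimmer probe set 1455600_at read 9.67 (204), 9.66 (206), 9.65 (F3.1), 9.66 (F3.2) and 9.07 (F3) in OIL, and 8.98, 9.07, 8.76, 8.93 and 8.58 in TAM. It was lower in TAM in 5 of 5 labels, although the OIL array of F3 was at the level of the highest TAM array. The difference was -0.68 log2 (-0.99 to -0.37), with a limma adjusted p of 0.087 without the block and 0.010 with it, and the brightest probe set differed by -0.02. With the block, the adjusted p of 1455600_at lay between 0.018 and 0.041 when any one label was left out. The remaining tested probe set of the gene, 1447563_at, differed by -0.12.

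Rps20 is a protein of the small subunit's head. The brightest probe set (1456436_x_at) differed by 0.04 log2 and the next by 0.03. The probe set 1450417_a_at read 6.82 (204), 7.14 (206), 7.16 (F3.1), 7.24 (F3.2) and 6.41 (F3) in OIL and 6.60, 6.44, 5.89, 6.01 and 5.47 in TAM, which differ by -0.87 (limma adjusted p 0.16, and 0.033 with the block). The probe set 1421935_at read 5.99, 6.48, 6.18, 6.38 and 5.39 in OIL and 5.88, 5.27, 4.92, 4.98 and 4.68 in TAM, which differ by -0.94 (adjusted p 0.18, and 0.045 with the block). Both were lower in TAM in 5 of 5 labels, by the least in 204. When any of 206, F3.1, F3.2 or F3 was left out the calls were lost (adjusted p 0.055 to 0.15), and without 204 both were kept (0.031 and 0.029). What parts of the transcripts these probe sets read was not determined here.

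**Figure D2:**
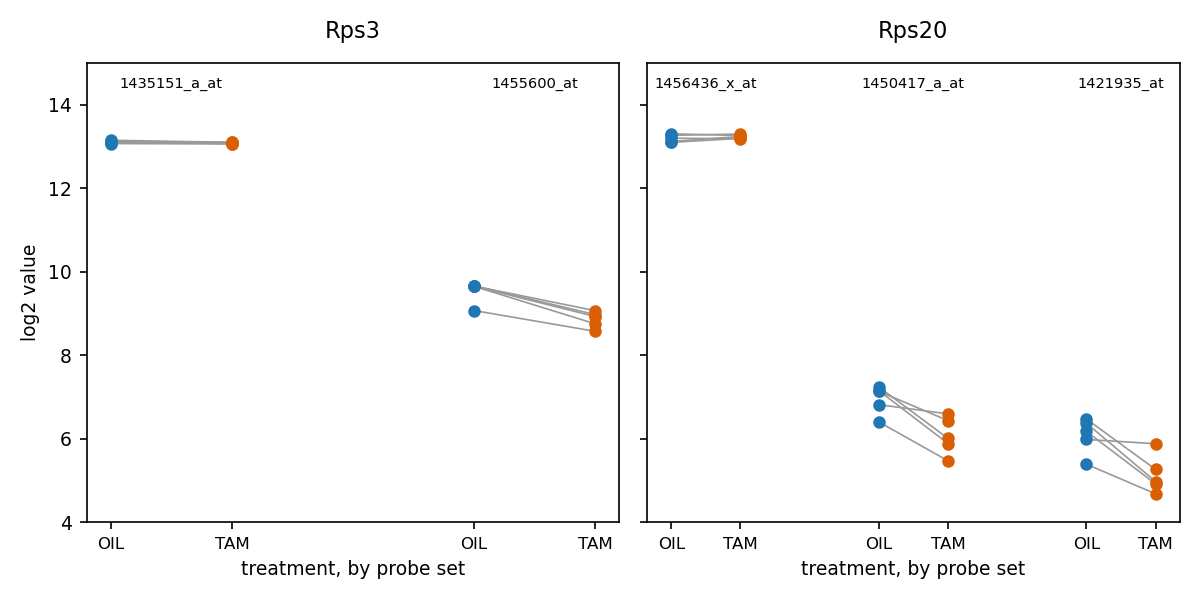
Log2 values of probe sets annotated to Rps3 (left) and Rps20 (right) on each array, OIL in blue and TAM in orange, with a line joining the arrays of 1 label. The brightest probe sets near 13 are level, and the dimmer ones are lower in TAM in 5 of 5 labels, by means of 0.68, 0.87 and 0.94 log2 for 1455600_at, 1450417_a_at and 1421935_at.

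The members were also compared between labels. An F test of the 5 labels called 1 of 44 members, against 10.6% of all tested genes. That member was Rpl12 (limma adjusted p 0.037), whose means per label were 8.12 (204), 7.96 (206), 7.51 (F3.1), 7.58 (F3.2) and 7.85 (F3). The next were Rpl14 (adjusted p 0.055), Rpl22l1 (0.063), Rps6 (0.075) and Rps27 (0.090). These 5 genes read below the crowded top of the scale, at means of 7.04 to 12.20. The count of called members was 0 when any single array other than the F3.2 arrays was left out, 3 without OIL F3.2 and 2 without TAM F3.2.

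Earlier results of these data had shown that arrays of 204 and 206 separate from those of the F3 family (the labels that begin with F3), so the members were compared along that line, with 2 label means against 3. Of 44 members, 36 were higher in 204 and 206 (81.8%), beside 48.9% of all tested genes. The median difference was 0.067 log2, beside -0.004 over all genes. In 28 of 44 members both 204 and 206 lay above all 3 F3 labels, against 20.5% of all tested genes, and in 2 both lay below, against 17.4%. The large subunit had 18 of 24 members above and the small subunit 10 of 20. When each array was centred on its median, 32 members were higher and 18 lay above all 3.

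**Figure D3:**
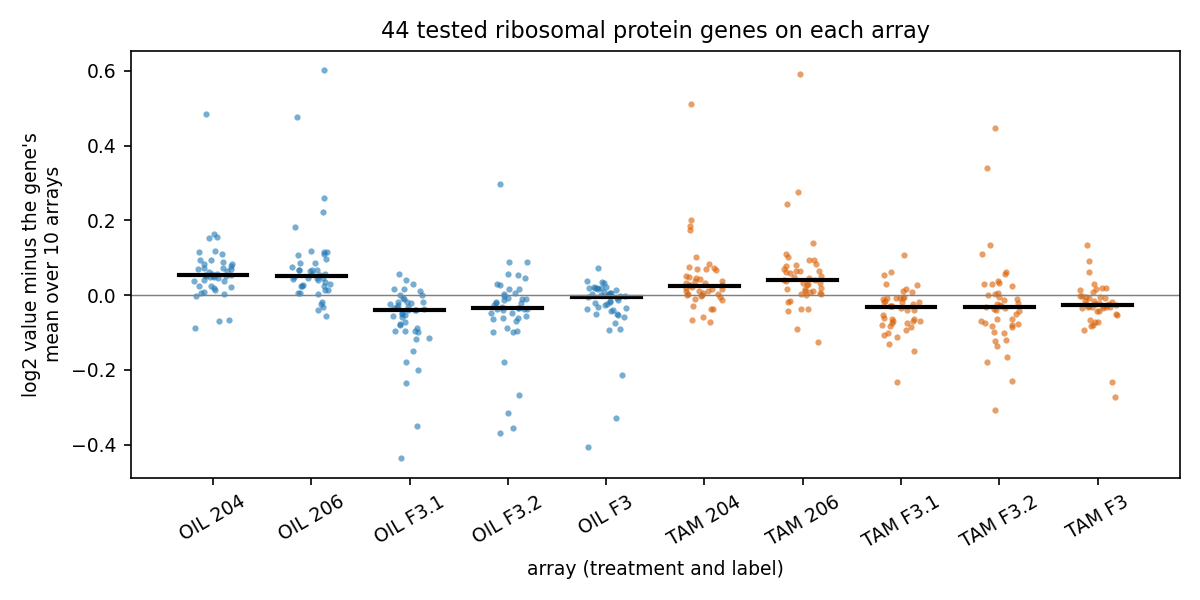
Log2 value of each of the 44 tested ribosomal protein genes minus that gene's mean over 10 arrays (vertical axis), by array, OIL in blue and TAM in orange, with a black bar at the median. The bars of the 4 arrays of 204 and 206 lie above 0 and those of the 6 F3 family arrays below it, with that of OIL F3 nearest to it.

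The shift was small, and it was slight on the OIL array of F3. The median of the members, each set against its own mean, was 0.055 (204) and 0.050 (206) in OIL and 0.024 and 0.039 in TAM. It was -0.040 (F3.1), -0.034 (F3.2) and -0.006 (F3) in OIL and -0.032, -0.033 and -0.026 in TAM. Over all tested genes the same median was -0.016 on the OIL and -0.037 on the TAM array of F3, below that of the members there. On the arrays of 204 and 206 the members likewise stood above all tested genes, and on those of F3.1 and F3.2 below them. Between 32 and 40 of the 44 members were above their own mean on an array of 204 or 206, and between 7 and 18 on an array of the F3 family. Of genes outside the group at a similar level, 6 of 19 with a mean above 13 were higher in 204 and 206, as were 88 of 151 between 12 and 13. Across the 10 arrays the 946 pairs of members had a median Pearson r of 0.37 (from -0.75 to 0.97), and 72.9% were above 0. These pairs share the same arrays and scaling.

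Only Rpl14 was called in this comparison (1 of 44, against 2.6% of all genes), and 3 members had an unadjusted p under 0.05, against 18.4% of all genes. Rpl14 read 8.96 (204), 8.95 (206), 8.24 (F3.1), 8.43 (F3.2) and 8.14 (F3) in OIL and 8.66, 8.61, 8.38, 8.17 and 8.20 in TAM. All 4 arrays of 204 and 206 were above all 6 of the F3 family. The difference of label means was 0.54 log2 (95% interval 0.32 to 0.75; limma adjusted p 0.040). The adjusted p was 0.052 with OIL arrays alone and 0.23 with TAM arrays alone, and between 0.054 and 0.058 under another scaling of the arrays. Leaving out OIL 204, OIL 206, OIL F3.1, OIL F3.2, TAM F3.2 or TAM F3 also lost the call (adjusted p 0.056 to 0.10).

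Rpl22l1 was higher in 204 and 206 by 0.34 log2 (0.14 to 0.55; limma adjusted p 0.10), with all 4 of its arrays there above all 6 of the F3 family. Rpl12 was higher by 0.39 (0.07 to 0.71; adjusted p 0.19). Rps6 was higher by 0.44 (-0.10 to 0.98; adjusted p 0.35), but its mean was 9.53 in 206 and 8.87 in 204, below the 8.98 of F3.2, so the labels did not separate. Rps27 was higher by 0.23 and Rpl37 and Rpl7l1 by 0.20 each. Rps19 and Rps15 had the highest differences among the small-subunit members at or near 13, at 0.16 each. At the other end stood Rpl27a (-0.08), Rps25 (-0.04), Rpl39 (-0.02) and Rpl41 (-0.01), none of which passed.

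**Figure D4:**
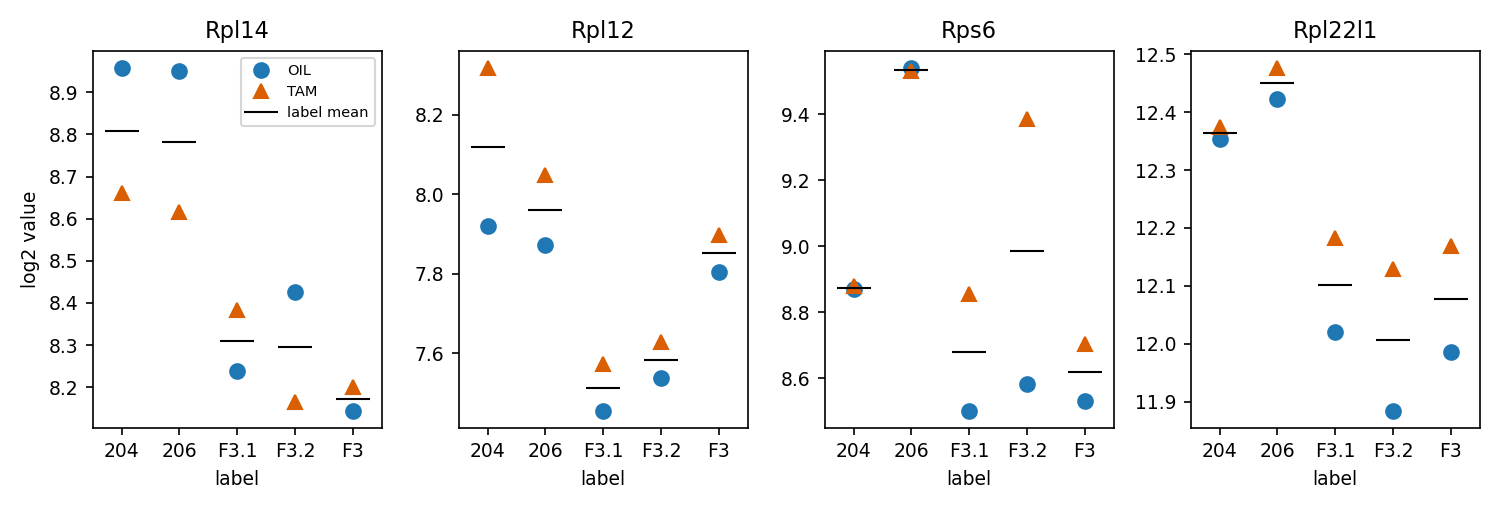
Log2 values of Rpl14, Rpl12, Rps6 and Rpl22l1 by label, with OIL as circles, TAM as triangles and the mean of both as a dash; each panel has its own vertical scale. Rpl14 and Rpl22l1 are higher on every array of 204 and 206 than on any F3 family array, and Rps6 is not.

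**Figure D5:**
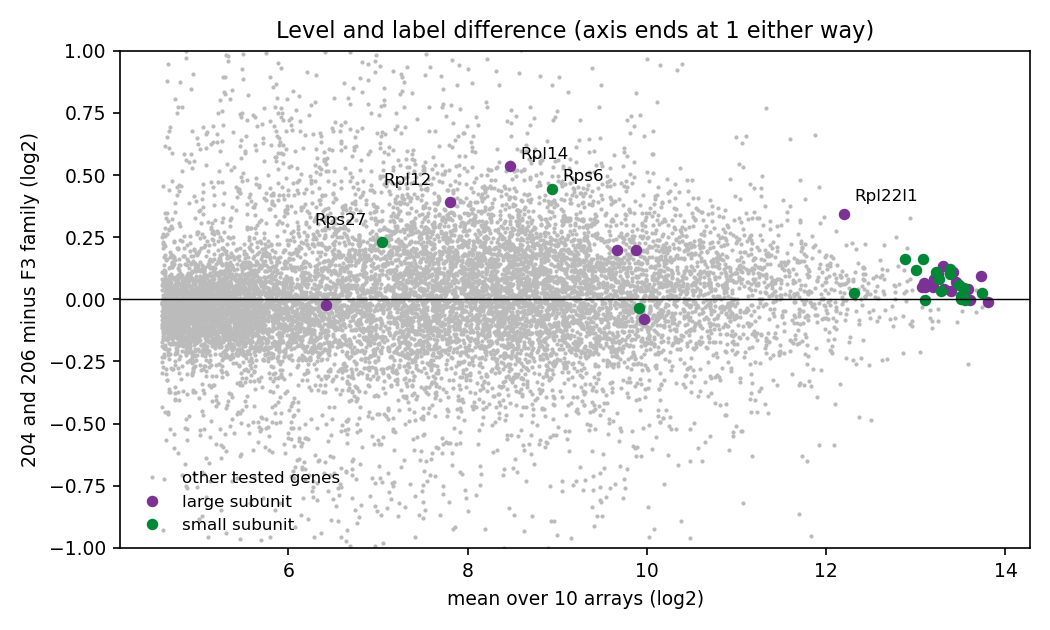
Mean over 10 arrays (log2, horizontal axis) against the difference of 204 and 206 from the F3 family (log2, vertical axis, which leaves out 379 other genes beyond 1 either way) for the tested genes, with large-subunit members in purple and small-subunit members in green. Most members sit at 13 log2 or above with differences near 0.05, and the largest differences belong to dimmer members.

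Other parts of the translation machinery stood in the same direction. Over all tested genes, 48.9% were higher in 204 and 206, 20.5% lay above all 3 F3 labels and 2.6% were called. Of 76 mitochondrial ribosomal protein genes, 68 were higher in 204 and 206, with a median of 0.126 log2. Of these 76, 38 lay above all 3 F3 labels and 0 were called, with the lowest limma adjusted p at 0.079. Of 16 TOP translation factors and partners, 13 were higher, led by Nap1l1 (0.40, adjusted p 0.084), a histone chaperone, and Npm1 (0.33, adjusted p 0.16), a nucleolar protein. Of 10 chaperones and assembly partners 9 were higher, with Tsr2 at 0.40, whereas of 10 TOP regulators 5 were higher and Eif4ebp1, the mTOR-controlled repressor of cap-dependent translation, stood at 0.64 (adjusted p 0.10). None of these lists had a call, and at a share of 2.6% lists this short would hold few or none.

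Other measures also differed in mean between these families. The 3′ minus 5′ signal of Gapdh was 0.004 ± 0.040 log2 (SD, n = 4 arrays) in 204 and 206 and 0.18 ± 0.14 (n = 6) in the F3 family, where the F3 arrays themselves read 0.057 and -0.029. The 3′ probe set of the small-subunit rRNA control read 12.52 ± 0.17 and 11.64 ± 0.90, where the F3 arrays read 12.72 (OIL) and 12.63 (TAM). In these measures F3 thus stood with 204 and 206 and apart from F3.1 and F3.2. The median of the members on the F3 array was also nearer to 204 and 206 than those of F3.1 and F3.2 within each treatment. It was -0.006 beside -0.040 and -0.034 in OIL, and -0.026 beside -0.032 and -0.033 in TAM. Myeloid markers (9 of 9 measured, Mpo and Itgam below the limit) summed to 8.30 to 9.26 in 204 and 206 and to 8.93 to 11.43 in the F3 family, with S100a8, a neutrophil protein, at 6.49 and 8.48. Erythroid markers stayed between 7.24 and 7.54 on all arrays. The part of RNA quality or of myeloid cells in the shift of ribosomal protein genes was not tested.

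The TAM against OIL difference itself did not separate the labels at this size. A test of whether it differed between 204 and 206 on one side and the F3 family on the other called 0 of 44 members, against 0% of all genes, and 0 members had an unadjusted p under 0.05, against 5.51% of all genes. The lowest adjusted p of a member was 0.87. With 2 differences against 3, this test could have missed real differences.

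Promoters were examined because ribosomal protein mRNAs share a start motif and the members shifted together between labels. RefSeq start sites of the mouse build GRCm38.p6 were listed for 42 of the 48 members, with 250 bases before and 50 bases from the start. The windows below run from 35 bases before the start to 15 bases from it, on the gene's strand. They were chosen for the members with the highest differences between labels, for 2 bright members (Rpl38 and Rplp2) and for Rps3. Rpl38 differed by -0.002 log2 between 204 and 206 and the F3 family, and Rplp2 by 0.09, with 204 and 206 above all 3 F3 labels. Capitals mark the longest run of C or T in each window, and the annotated start is at the letter that follows the first 35.
Rpl14 (chr9:120571482-120571531, plus strand): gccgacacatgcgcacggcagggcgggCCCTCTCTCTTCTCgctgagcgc
Rpl12 (chr2:32961677-32961726, plus strand): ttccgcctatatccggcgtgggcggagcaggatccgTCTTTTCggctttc
Rps6 (chr4:86857353-86857402, minus strand): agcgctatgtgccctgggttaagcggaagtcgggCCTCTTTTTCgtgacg
Rpl22l1 (chr3:28805473-28805522, plus strand): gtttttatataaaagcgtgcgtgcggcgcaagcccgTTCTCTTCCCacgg
Rpl38 (chr11:114668545-114668594, plus strand): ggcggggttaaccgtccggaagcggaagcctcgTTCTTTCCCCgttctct
Rplp2 (chr7:141447616-141447665, plus strand): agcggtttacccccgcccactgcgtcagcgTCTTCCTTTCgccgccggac
Rps3 (chr7:99483695-99483744, minus strand): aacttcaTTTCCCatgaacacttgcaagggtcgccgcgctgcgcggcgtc

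A run of 10 pyrimidines spans the annotated start in Rps6, Rpl38 and Rplp2, and one of 14 spans it in Rpl14. In Rpl22l1 a run of 10 begins 1 base after the start. The longest run in the Rps3 window is 6 and lies upstream of the annotated start. In Rpl12, the member called between labels, the longest run is 7 and also begins 1 base after the start. The members that varied most thus differed in the length and position of the run, with lengths of 7 to 14. Over all listed members, 23 of 42 (54.8%) had at least 8 consecutive pyrimidines within 25 bases of the start, beside 22.04% of 17492 protein-coding genes and 24.6% of 69 mitochondrial ribosomal protein genes. A C exactly at the annotated start followed by 4 pyrimidines was present in 8 of 42 (19.0%), beside 2.67% of all genes and 0 of 69 mitochondrial ones. Annotated starts can be some bases away from the starts these cells use.

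Within the whole listed windows, on both strands, CCGGAAG, the core of ETS factor motifs, was found in 20 of 42 members (47.6%), in 12.9% of all genes and in 37.7% of mitochondrial ribosomal protein genes. AAGATGGC, the core of the YY1 motif, which can overlap the ETS core by its first AAG, was found in 4 of 42 (9.5%). Its share was 3.57% of all genes and 17.4% of mitochondrial ribosomal protein genes, above that of the members. TATAAA was found in 6 of 42 (14.3%), beside 14.8% of all genes and 7.2% of mitochondrial ribosomal protein genes. These matches describe letters in the reference sequence and no binding was measured.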

How the data were processed

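Total RNA (200 ng) of sorted leukemic cells was amplified, biotin-labelled and hybridised to 10 arrays, per the labels' protocols. The authors deposited log2 values from RMA, per the submitters' processing notes; the version, scan dates and any further filter are not given in the sources used here. Array precision is limited by the number of arrays. Gene symbols came from the platform annotation (34958 with 1 symbol, 932 with several, 9211 with none), and all 48 members carried the current RefSeq symbol. The brightest probe set per gene was kept and the 30% of genes with the lowest means were left out (12736 tested). limma 3.58.1 in R 4.3.3 (lmFit, eBayes) was fitted to all tested genes with Benjamini-Hochberg adjustment, calls at 0.05: TAM against OIL, an F test of the labels with treatment as a term, 204 and 206 against the F3 family on label means, and the treatment difference between those families. The fits were run on simulated data with 200 changed genes and noise drawn independently for each array. The simulated arrays of one label shared no deviations, unlike those here, so the simulation cannot show how the fits handle shared deviations. The labels shared by OIL and TAM samples pair them: deviations from the group means correlated at 0.76 (204), 0.75 (206), 0.58 (F3.1), 0.18 (F3.2) and 0.80 (F3), all above 0.1. By likeness alone, OIL F3.2 lay nearest to TAM F3.1, TAM F3.1 to OIL F3.2 and TAM F3.2 to OIL F3, so the F3.1 and F3.2 pairs rest on their labels more than on these values.

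The members and gene lists were chosen with earlier results of these data known. Members were named if called in any of the tests, if among the 6 highest or lowest in either main comparison, or if on a list of well-known members; probe sets of Rps3 and Rps20, and other members given in passing, were chosen after their values were seen. Alternatives covered the block, the choice of probe set, the filter, the scaling of arrays, eBayes options, array weights and leaving out arrays. Promoters came from a RefSeq table and were read as given. No protein sequence was used here.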

Additional observations from a re-analysis of the deposited data

Results flagged for a closer look

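Of 88 groups (44 tested members in OIL and in TAM, 5 arrays each), 6 had 1 array far from the other 4, where the gap to its neighbour was more than 0.71 of the group's range. Chance flags about 1 group in 20, so this number is near what chance gives. Rpl13a read 13.45 on the OIL array of 204, above 13.36 to 13.37 on the others. Rpl19 read 13.38 on the TAM array of 206, above 13.27 to 13.30. Rps25 read 10.25 on the TAM array of F3.2, above 9.81 to 9.91, the widest of these gaps. Rps7 read 13.50 on that same array, below 13.54 to 13.55. On the TAM array of F3, Rps26 read 13.19, below 13.29 to 13.32, and Rpsa read 13.45, below 13.53 to 13.56.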

How the results depend on the processing

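Across 32 alternatives, no member was called for TAM against OIL or for the treatment difference between families, with or without the replicate block, but when each probe set was tested on its own, 3 dimmer probe sets of 2 members (Rps3 and Rps20) were called with the block and 0 without it. The block changed no other call. The median TAM minus OIL difference was -0.022 to -0.001 when 1 array was left out and 0.011 with array weights. The count of members called among the labels was 3 with the mean of all probe sets (Rpl12, Rpl14, Rpl22l1), 4 with the trend and robust options (also Rps19) and 0 to 3 when 1 array was left out. The 1 call between 204 and 206 and the F3 family became 0 with arrays centred on their medians or on bright other genes, with a further quantile normalization, with OIL F3.1 and F3.2 averaged, and with OIL or TAM arrays only. It became 2 (Rpl14, Rpl22l1) with trend and robust options or the label as a random term, and was 0 to 1 when 1 array was left out. The median of that comparison was 0.083 with the mean of probe sets or with unshared probe sets, 0.036 after median centring, 0.048 after centring on bright genes, 0.043 after quantile normalization and 0.058 to 0.083 when 1 array was left out. Members above all 3 F3 labels numbered 18 after median centring. The cause of these changes was not tested. Of the named members' values, 47 of 509 (TAM minus OIL) and 49 of 482 (between families) changed sign under an alternative, none of them called.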
